A study of Mus musculus with 14 samples.

Results

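The genes described here are 44 mouse genes of the cell division cycle and of DNA replication. They were chosen by name, and every probe set that the array's annotation gives to 1 of these symbols alone was taken. Of the 44 genes, 43 had such a probe set, out of 18193 genes named on the array, and all 43 passed a filter on low signal. Ccnb1 is not analysed here. The 43 comprised 7 genes of G1 and S phase entry, 13 genes of DNA replication and 23 genes of mitosis. They had 101 probe sets, of which 87 passed the filter, and 28 genes had more than 1 of these. The brightest probe set stood for its gene in the tests of genes, and all 87 were also tested one by one.

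The study profiled whole fetal ovaries on 14 Affymetrix arrays, 4 of E16.5 knockouts, 4 of E16.5 controls, 3 of E14.5 knockouts and 3 of E14.5 controls, where E is the embryonic day. Knockout embryos carried WT1-CreERT2 and COUP-TFII flox/flox alleles, so that tamoxifen could remove Coup-tfII (Nr2f2), a nuclear receptor, from cells expressing Wt1. Cells without Wt1 keep the gene in this model. The other arm is called control in the labels, which give no Cre or flox allele for it. Per the labels, dams received 2 mg of tamoxifen for each 10 g of body weight at E11.5 and again at E12.5, with no difference stated between the arms, and all embryos came from a mixed background of C57BL/6, B6129SF1/J and Swiss Webster. The ovaries were thus taken 4 or 2 days after the last dose. The samples are labelled biological replicates, and how many ovaries made up 1 sample is not stated.

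A cell commits to division in G1 phase, when D-type cyclins and then cyclin E switch on kinases that release E2F factors. Helicase rings of the Mcm2 to Mcm7 proteins, loaded on DNA beforehand, then open the double helix in S phase, and the mitotic kinases, spindle motors and kinetochore proteins later part the copied chromosomes. Most of these genes are transcribed in bursts once a cycle, so their RNA is commonly read as a mark of dividing cells. In the fetal mouse ovary germ cells stop mitotic division, copy their DNA once more and enter meiosis, while somatic cells of several kinds keep their own rates of division. In RNA from whole ovaries, fewer cells of a type and less RNA per cell cannot be told apart.

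Promoters of cell cycle genes are known for a few short motifs, which were searched on both strands in the 250 bases before the start of each gene. The motifs were the CCAAT box (CCAAT), the cell cycle genes homology region or CHR (TTTGAA or TTCGAA) and the E2F site (TTTCCCGC, TTTGGCGC, TTTCGCGC or TTCCCGCC). Of the 44 genes, 35 had a promoter in the RefSeq table, and Aurkb, Ccna2, Ccnd1, Ccnd2, Ccne2, Foxm1, Gmnn, Kif20a and Mcm4 were the others. A CCAAT box was present in 26 of the 35 (74.3%), against 37.5% of the 27025 genes with a promoter in that table, noncoding genes included. The E2F site was present in 6 of 35 (17.1%), against 3.36% of all genes, and 5 of these 6 were replication genes. A CHR was present in 10 of 35 (28.6%), against 19.6% of all genes, and 8 of these 10 were mitosis genes. The 120 bases before the start of 6 genes are printed 5′ to 3′ on the gene's strand, from RefSeq on GRCm38.p6, with matches to any of the motifs in capitals. They were picked because the stage results turn on them: Mcm5, Pcna, Bub1 and Top2a had lower signal at E16.5, Mki67 had higher signal, and the probe sets of Mcm6 moved apart.
Mcm5 (chr8:75109389-75109508, + strand): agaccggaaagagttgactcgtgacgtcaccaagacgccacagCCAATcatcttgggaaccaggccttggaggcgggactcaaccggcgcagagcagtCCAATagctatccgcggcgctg
Pcna (chr2:132253181-132253300, - strand): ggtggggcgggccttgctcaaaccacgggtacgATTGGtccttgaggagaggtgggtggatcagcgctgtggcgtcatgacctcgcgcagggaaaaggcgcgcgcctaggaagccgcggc
Mcm6 (chr1:128359706-128359825, - strand): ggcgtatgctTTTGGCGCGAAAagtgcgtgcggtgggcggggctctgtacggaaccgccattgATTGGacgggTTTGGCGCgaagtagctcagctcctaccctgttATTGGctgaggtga
Bub1 (chr2:127831860-127831979, - strand): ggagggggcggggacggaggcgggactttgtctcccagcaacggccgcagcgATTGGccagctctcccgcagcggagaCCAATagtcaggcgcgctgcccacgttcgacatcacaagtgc
Top2a (chr11:99024190-99024309, - strand): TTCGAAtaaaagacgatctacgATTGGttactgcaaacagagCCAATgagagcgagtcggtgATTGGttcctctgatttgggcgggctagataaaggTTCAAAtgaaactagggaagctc
Mki67 (chr7:135716380-135716499, - strand): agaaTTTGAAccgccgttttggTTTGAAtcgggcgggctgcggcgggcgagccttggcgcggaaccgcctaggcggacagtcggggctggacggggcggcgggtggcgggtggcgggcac
In these stretches Mcm5 and Bub1 each held 2 CCAAT boxes and Pcna held 1, on either strand. Mcm6 held E2F sites, 2 of which overlap in a single run of capitals, beside 2 CCAAT boxes. Top2a held CCAAT boxes and CHRs, and the capitals of Mki67 mark CHRs alone. Top2a and Mki67, whose signals moved in opposite directions between the stages, both held CHRs, and a match of letters shows no binding.

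The signal is the authors' MAS5 value, which scales every array to the same trimmed mean, so levels are relative to the rest of the array. Nr2f2, the targeted gene, had 4 probe sets above the filter. At E16.5 the knockouts lay below the controls on all 4, and 2 fell past the threshold, with log2 changes of -2.57 and -1.60. At E14.5 none passed (limma, 0 of 4, with 2 of 4 at an unadjusted p under 0.05), and the brightest differed by -0.67 ± 0.25 (SE, adjusted p = 0.444). On 1416159_at Nr2f2 had 34.6, 65.6 and 79.1 in E14.5 knockouts, against 19.3, 349.7 and 207 in E14.5 controls. The library labelled E14.5 control replicate 1 thus lay below all 3 knockouts there, and on 1416158_at and 1436475_at it lay within the knockout range (217 and 362). On 1416160_at it lay above all 3 knockouts, at 268 against 219, 161 and 259. It thus goes against its label on some but not all probe sets of the targeted gene. Without it 1 of the 4 probe sets fell past the threshold at E14.5 (1416159_at, -1.97 ± 0.26, adjusted p = 0.00572). It was kept under its label, and the E14.5 gene counts and part of the single-gene and marker results are also given without it. The other E14.5 results rest on all 3 controls. The probe sets for Gapdh at its 3′ and 5′ ends, a control for RNA length, separated the stages: the log2 difference of 3′ minus 5′ was 0.94 to 1.63 in E16.5 knockouts, 1.67 to 1.82 in E16.5 controls, -0.37 to -0.29 in E14.5 knockouts and -0.42 to -0.06 in E14.5 controls. The ranges of E16.5 knockouts and E16.5 controls did not overlap either, so at E16.5 this Gapdh value also went with the genotype. Its part in the E16.5 differences between knockouts and controls was not tested beyond the fit with it as a covariate. The median signal of an array was 117.6 to 136.2 at E16.5 and 90.01 to 102.1 at E14.5. Values of arrays of 1 group correlated at 0.969 to 0.982, and those of different stages at 0.857 to 0.877.

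The first comparison asked whether removing Coup-tfII changed these genes at E16.5. None of the 43 genes passed the threshold, an adjusted p under 0.05 in limma over 12406 genes, against 1.42% of all genes (176 of 12406). At an unadjusted p under 0.05 there were 7 of 43, against 18.3% of all genes. The changes ran from -0.51 to 0.53 on the log2(signal + 16) scale, on which all changes below are given, with a median of -0.0044 against 0.05 over all genes. The 95% interval of the difference lay within a 2-fold change in either direction for 43 of 43 genes, so effects over 2-fold on the RNA of the whole ovary lay outside these intervals, while a smaller one may not pass with 4 arrays a group. Knockout and control arrays were apart without overlap for 1 of 43 genes (2.33%), against 10.4% of all genes.

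Among the genes of S phase entry, the cyclin Ccne2 and the inhibitor Cdkn1b came closest to the threshold. Ccne2, which with its kinase partner starts DNA synthesis, had signals of 811, 612, 801 and 949 in E16.5 knockouts, against 479.7, 681, 481 and 537 in E16.5 controls. The lowest knockout array lay within the controls, and the change was 0.53 ± 0.16 (SE, adjusted p = 0.116). Without knockout replicate 2, that lowest array, it was 0.64 ± 0.16 and passed (adjusted p = 0.0395, the lowest of 26 alternatives, of which the highest was 0.803). Cdkn1b encodes p27, which holds cyclin-kinase pairs inactive, and had 2009, 2464, 2804 and 1786 in knockouts, against 4035, 2751, 2991 and 3084 in controls. The groups overlapped by 1 array, and the change was -0.51 ± 0.16 (adjusted p = 0.118). The other probe set of Cdkn1b above the filter, 1419497_at, changed by -0.06. Ccnd1, a D-type cyclin, had 1062, 1029.7, 523 and 1167 in knockouts, against 594, 471, 833 and 734 in controls. Knockout replicate 3 stood far below the other 3, and without it Ccnd1 passed, at 0.74 ± 0.18 (adjusted p = 0.0490, with values up to 0.922 over the alternatives). With all 4 the groups overlapped.

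Ccnd2, the D-type cyclin best known from dividing granulosa cells, held the only probe set of the 87 to pass at E16.5 (1.15%, against 0.918% of 27022 probe sets). That probe set, 1416122_at, had 2467, 2257, 2111 and 2707 in knockouts, against 1766, 1771, 1606 and 1637 in controls. Every knockout array lay above every control array, and the change was 0.48 ± 0.11 (SE, adjusted p = 0.0376). Across the gene's 7 probe sets the E16.5 change was positive for 6, from -0.04 to 0.53. The brightest, which stood for the gene, had 4986, 4701, 4033 and 4844 in knockouts, against 4158, 3663, 3755 and 3548 in controls. These overlapped by 1 array, at 0.29 ± 0.10 (adjusted p = 0.132). The call on 1416122_at was lost without any 1 of the 4 E16.5 control arrays, without knockout replicate 1 or 4, and without E14.5 control replicate 3 (adjusted p = 0.0501 to 0.126), and over all alternatives the adjusted p was 0.0214 to 0.4003. At an unadjusted p under 0.05 there were 16 of the 87 probe sets, against 16.1% of all probe sets.

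Among replication genes the changes were -0.36 to 0.15, with 8 of 13 negative. Mcm7, a helicase subunit, had 3170.3, 3803, 3109.8 and 4062 in E16.5 knockouts, against 4395, 4190.4, 4312 and 5165 in controls. It was the 1 gene whose groups did not overlap, and its change of -0.36 ± 0.12 did not pass (adjusted p = 0.148). Across the 4 probe sets of Mcm7 the change was positive for 1, and it ran from -0.36 to 0.11. Pcna, the clamp that holds DNA polymerase on its template, had 4565, 5747, 4594 and 6046 in knockouts, against 6580.2, 5665, 5246 and 7896 in controls, with overlap (-0.27 ± 0.13, adjusted p = 0.271). Mcm2, another helicase subunit, had 683, 762, 694 and 772 in knockouts, against 968, 831, 682 and 1076 in controls. Its knockout arrays lay close together inside the wider range of the controls (-0.27 ± 0.16, adjusted p = 0.405). Cdt1, which loads the helicase, had 2462, 2609, 2485 and 2887 in knockouts, against 3010.1, 2971, 2641 and 3046 in controls (-0.16 ± 0.11, adjusted p = 0.474). The other 9 replication genes had larger unadjusted p values than Cdt1.

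Among mitosis genes the changes were -0.29 to 0.29, with 12 of 23 negative. Cdc20, which switches on the ubiquitin ligase that ends metaphase, had 1132, 1785, 1336 and 1363 in knockouts, against 1655, 1784, 1526 and 1846 in controls. Knockout replicate 2 lay above 3 of the 4 controls and the others below all of them (-0.29 ± 0.14, adjusted p = 0.271). Kif20a, a motor of the dividing cell's midzone, had 978, 1135, 964 and 1126 in knockouts, against 1321, 1205, 1032 and 1313 in controls (-0.21 ± 0.11, adjusted p = 0.336). Kif23, a motor needed for cytokinesis, had 671, 813, 621 and 743 in knockouts, against 921, 762, 745 and 1058 in controls (-0.28 ± 0.16, adjusted p = 0.385). Both motors overlapped between the groups. Cdk1, the kinase that starts mitosis, had 1757, 1474, 1180.1 and 1119 in knockouts, against 1448, 1444, 1594 and 1915 in controls (-0.22 ± 0.14, adjusted p = 0.399). Mki67, the Ki-67 protein that coats mitotic chromosomes, had 6647, 6191, 6123 and 8481 in knockouts, against 8405, 7576, 5942 and 9347 in controls. These ranges overlapped widely as well (-0.18 ± 0.14, adjusted p = 0.502).

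Some marker genes of other cells passed between these arrays, where 1.42% of all genes did, and their part in the values above was not tested. The summed signal of 9 pre-granulosa markers was 23832 to 25702 in E16.5 knockouts and 28971 to 30436 in E16.5 controls. In limma 0 of 9 passed, with 4 of 9 at an unadjusted p under 0.05, against 18.3% of all genes. The median difference of these 9 from the control mean overlapped, at -0.28 to -0.06 in knockouts and -0.09 to 0.08 in controls. The summed signal of 10 interstitial markers was 15116 to 22661 in knockouts and 23264 to 25661 in controls, with 3 of 10 lower. These 10 include Nr2f2, the targeted gene, at 2053 to 3359 in knockouts and 3819 to 4950 in controls on its brightest probe set. Nr2f2 was not 1 of the 3 lower, but it widens the gap between these sums, which were not compared without it. Leukocyte markers summed to 3606 to 8182 in knockouts and 3376 to 4118 in controls, with 1 of 10 higher, and surface epithelium markers to 13258 to 17467 in knockouts and 11381 to 12993 in controls, with 2 of 8 higher. None of these lists was at 0 in either group.

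**Figure D1:**
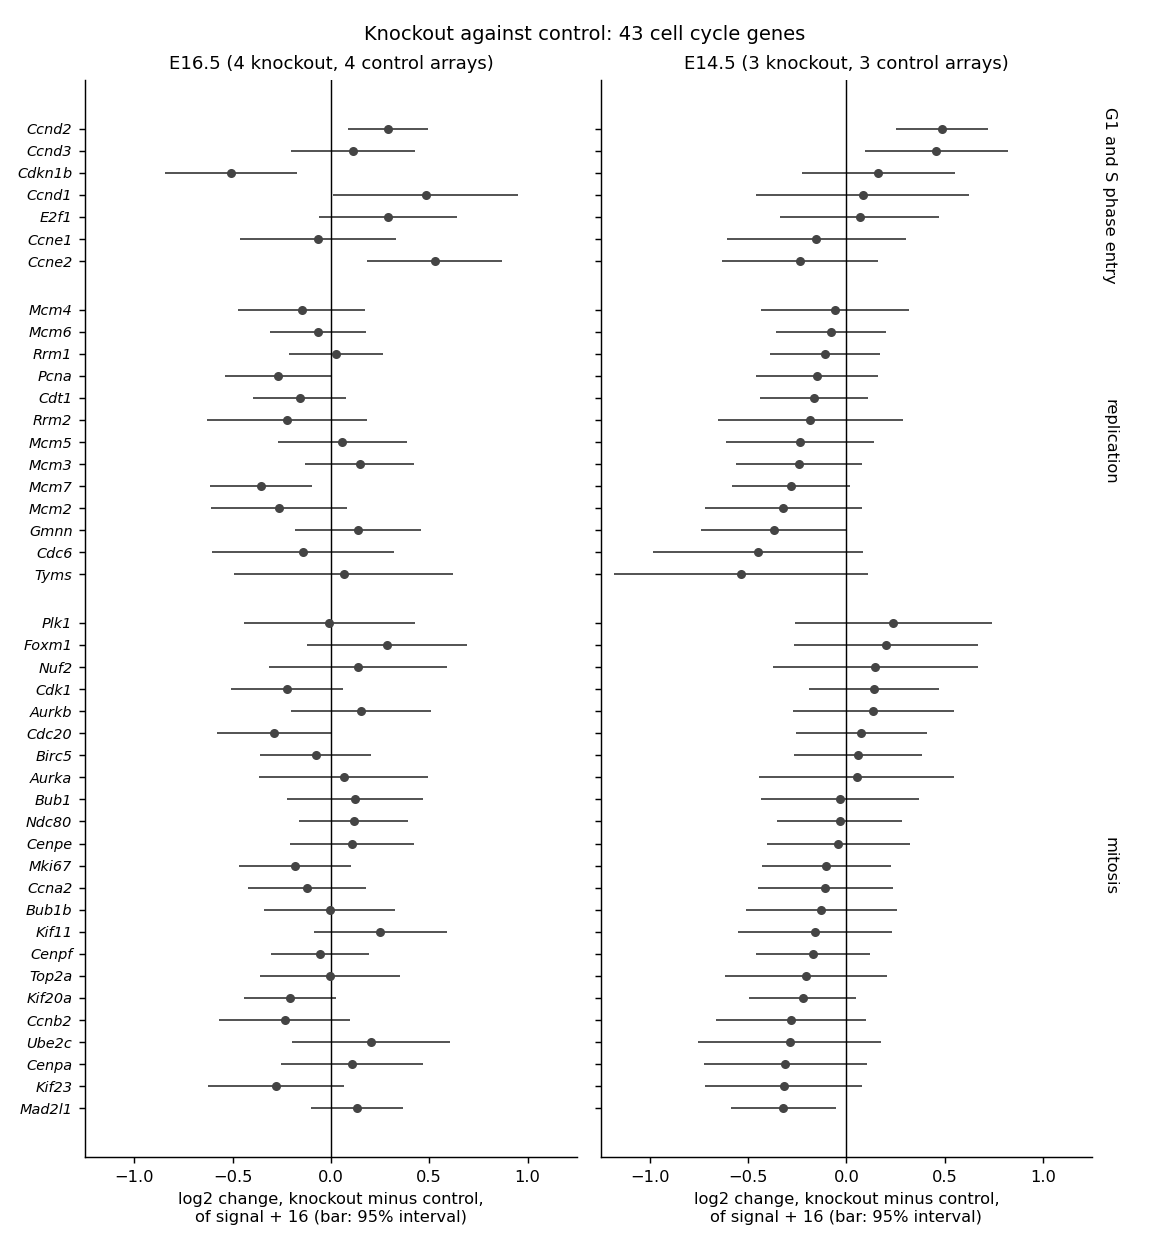
The log2 change of signal + 16, knockout minus control, is plotted for 43 genes at E16.5 (left) and E14.5 (right), as points with 95% intervals from limma, grouped by role and ordered within each role by the E14.5 change. No gene passed at either stage, the changes lie between -0.54 and 0.53, and all 13 replication genes are on the negative side at E14.5.

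At E14.5, earlier after the deletion, again none of the 43 genes passed in limma, against 0.0403% of all genes (5 of 12406). At an unadjusted p under 0.05 there were 3 of 43, against 8.55% of all genes. The changes ran from -0.54 to 0.49, with a median of -0.13 against 0.03 over all genes. All 13 replication genes had a negative value (median -0.23), as did 15 of 23 mitosis genes and 2 of 7 genes of S phase entry. With 3 arrays a group the 95% interval lay within a 2-fold change for 42 of 43 genes; the exception was Tyms. The groups did not overlap for 4 of 43 genes (9.3%), against 12.7% of all genes, namely Ccnd2 and Ccnd3 above the controls and Tyms and Kif20a below. Without the library labelled E14.5 control replicate 1 again 0 of 43 genes passed in limma, against 22 of 12390 genes, and the members' median was -0.12. All 13 replication genes kept a negative value, with a median of -0.20, and 17 of 23 mitosis genes had one. The arms were then apart for 6 of 43 genes (14%, against 22.6% of all genes), Ccnd1 and Mki67 being the added ones.

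Ccnd2 came closest to the threshold. Its signals were 9409, 10437 and 8314 in E14.5 knockouts, against 7229, 6433 and 6382 in E14.5 controls, without overlap, a change of 0.49 ± 0.11 (SE, adjusted p = 0.205). All 7 of its probe sets had a positive value, from 0.41 to 0.81. Ccnd3, the third D-type cyclin, had 1403, 1905 and 1529 in knockouts, against 879, 1398 and 1269.8 in controls (0.46 ± 0.17, adjusted p = 0.444). The lowest knockout array of Ccnd3 was just above the highest control. Without the library labelled control replicate 1 the changes were 0.54 ± 0.12 for Ccnd2 and 0.26 ± 0.17 for Ccnd3 (adjusted p = 0.140 and 0.817). The other probe set of Ccnd3 above the filter, 1438805_at, went the other way, at -0.17 with all controls. Cdkn1b had 2990.2, 3280.2 and 2482 in knockouts, against 2048, 2999 and 2824 in controls, and overlapped (0.16 ± 0.18, adjusted p = 0.857). Without that library Cdkn1b stood at -0.0060 ± 0.19. The other probe set of Cdkn1b, 1419497_at, changed by -0.35 with all controls. Of the 87 probe sets none passed (0.0222% of all did), with 11 at an unadjusted p under 0.05, against 8.03% of all probe sets.

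In the replication group, knockout replicates 1 and 2 were low and replicate 3 was not. Gmnn, geminin, which blocks Cdt1 after origins have fired, had 2598, 2065 and 3427 in knockouts, against 4162, 2978 and 3218 in controls (-0.37 ± 0.18, adjusted p = 0.585). Mcm7 had 4999, 5008 and 6913 in knockouts, against 7684, 6349 and 6384 in controls (-0.28 ± 0.14, adjusted p = 0.611). Cdc6, a helicase loader, had 248, 298 and 468 in knockouts, against 494, 465 and 398 in controls (-0.45 ± 0.25, adjusted p = 0.652). In each of these 3 genes replicates 1 and 2 lay below all controls and replicate 3 within them. Without the library labelled control replicate 1 the changes were -0.23 for Gmnn, -0.19 for Mcm7 and -0.38 for Cdc6, and none passed. Tyms, thymidylate synthase, had 44.9, 68.6 and 81.9 in knockouts, against 98.8, 106 and 93.5 in controls, near the lowest signals that passed the filter (-0.54 ± 0.31, adjusted p = 0.655). Pcna had 11496, 9070.5 and 11076 in knockouts, against 11786, 11331 and 11776 in controls (-0.15 ± 0.15, adjusted p = 0.831), and only its replicate 2 and replicate 3 were below all controls.

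Counted over the group, knockout replicates 1, 2 and 3 had 10, 13 and 2 of the 13 replication genes below all E14.5 controls, and replicate 3 had 5 above all of them. For the 23 mitosis genes these counts were 9, 12 and 5 below, with 3, 3 and 11 above. Set against control replicates 2 and 3 alone, knockout replicates 1, 2 and 3 had 11, 13 and 2 replication genes below both and 0, 0 and 9 above both. Among markers of mitotic and early germ cells, 6 of the 10 listed passed the filter, and their median difference from the control mean was -2.08, -2.39 and 0.31 in knockout replicates 1, 2 and 3, against 0.75, -0.47 and -0.26 in the controls. Set against control replicates 2 and 3 alone it was -1.72, -2.01 and 0.71 in knockout replicates 1, 2 and 3. For 9 general germ cell markers it was -0.28, -0.60 and -0.02 in knockout replicates 1, 2 and 3, against 0.02, -0.12 and 0.03 in the controls. The 14 meiotic markers divided the arrays in another way, with 0.08, -0.30 and -0.25 in knockout replicates 1, 2 and 3, against -0.03, -0.19 and 0.24 in the controls. The summed signal of the 6 markers of mitotic and early germ cells was 1558 to 7228 in E14.5 knockouts and 4209 to 9508 in E14.5 controls. None of these 6 passed in limma, with 5 of 6 at an unadjusted p under 0.05. Leukocyte markers were higher in replicates 1 and 2, at 0.40 and 0.58, and 0.06 in replicate 3. The part of these cells in the replication genes was not tested.

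**Figure D2:**
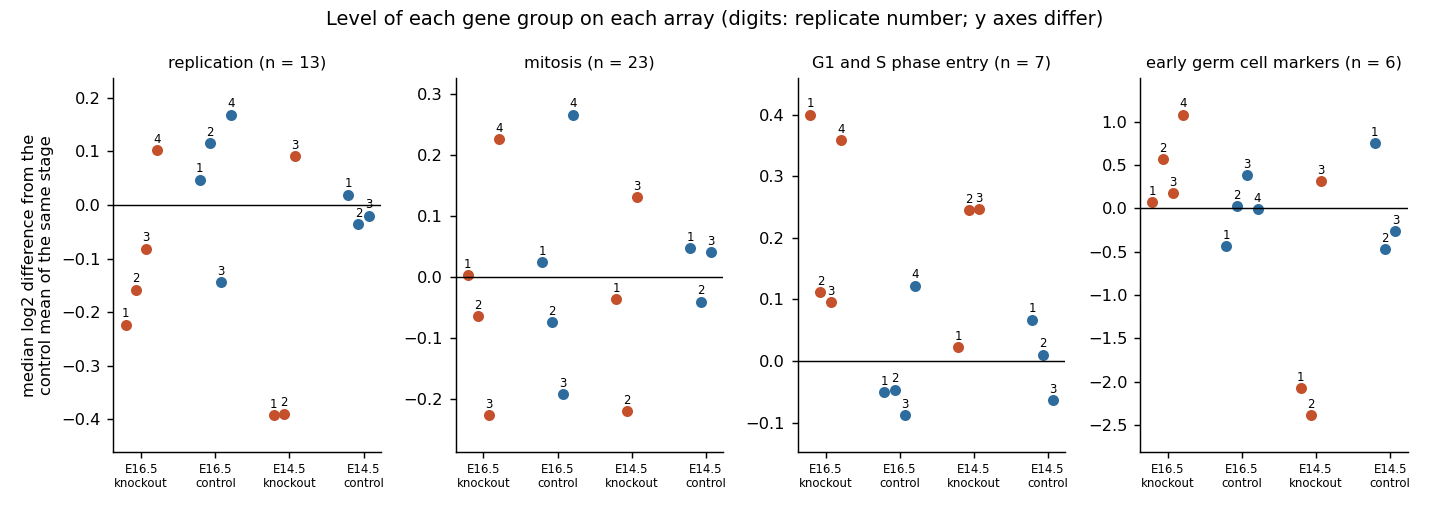
Each point is 1 array, numbered by replicate, at the median log2 difference of a gene group from the control mean of its stage, for replication, mitosis, and S phase entry genes and for markers of mitotic and early germ cells; the y axes differ. E14.5 knockout replicates 1 and 2 lie at -0.39 for the replication genes and at -2.08 and -2.39 for the germ cell markers, while replicate 3 lies at 0.09 and 0.31.

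Without knockout replicate 3, Ccnd2 passed as higher at E14.5 (0.57 ± 0.12, SE, adjusted p = 0.0286, with values up to 0.664 over the alternatives), the 1 gene of the 43 to do so. Among probe sets, 2 of Ccnd2 then passed as higher and 1434079_s_at of Mcm2 as lower (-0.81 ± 0.14, adjusted p = 0.0125, with values up to 0.943 over the alternatives). Among mitosis genes with all arrays, Mad2l1, a spindle checkpoint protein, had 3903, 3215 and 3790.1 in knockouts, against 5202, 3807 and 4683 in controls (-0.32 ± 0.13, adjusted p = 0.489). Knockout replicate 1 alone lay within the controls, and the others below them. Kif20a had 762, 818 and 899 in knockouts, against 1016, 956 and 926 in controls (-0.22 ± 0.13, adjusted p = 0.659), without overlap. Kif23 had 1476, 1225 and 2155 in knockouts, against 2046, 1678 and 2219 in controls (-0.32 ± 0.19, adjusted p = 0.671). Cenpa, the histone that marks centromeres, had 1083, 1136 and 1935 in knockouts, against 1673, 1608 and 1707 in controls (-0.31 ± 0.20, adjusted p = 0.694). For Kif23 and Cenpa the split by replicate was again visible. Mki67 had 4075, 3794 and 3359 in knockouts, against 3545, 4393 and 4120.2 in controls (-0.10 ± 0.16, adjusted p = 0.905).

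Whether the effect of the knockout differed between E16.5 and E14.5 was tested as the difference of the 2 effects. None of the 43 genes passed in limma, as none of 12406 did (0%), and 4 had an unadjusted p under 0.05 (8.91% of all genes did). The largest of the 4 were Ccne2, at 0.76 ± 0.25 (SE, adjusted p = 0.51), and Cdkn1b, at -0.67 ± 0.24 (adjusted p = 0.525). That of Cdkn1b rests on its brightest probe set, with -0.51 at E16.5 and 0.16 at E14.5. Its other probe set, 1419497_at, went the other way, with -0.06 at E16.5 and -0.35 at E14.5. The remaining genes of the 4 were Mad2l1 at 0.45 ± 0.17 and Gmnn at 0.51 ± 0.23 (adjusted p = 0.525 and 0.546). Mki67 and Pcna had differences of -0.08 ± 0.21 and -0.12 ± 0.19. None of the 87 probe sets passed, and 5 had an unadjusted p under 0.05 (8.35% of all probe sets did).

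Far more of these genes differed between the stages than between the genotypes, as did genes at large. In knockouts 25 of 43 passed between E16.5 and E14.5 (58.1%, against 60.8% of all genes), with 6 higher (14%, against 27%) and 19 lower (44.2%, against 33.8%) at E16.5. In controls, which are separate arrays, 24 of 43 passed (55.8%, against 64.4%), with 5 higher (11.6%, against 28.5%) and 19 lower (44.2%, against 35.9%). The median change was -0.24 in knockouts and -0.38 in controls, against -0.08 and -0.09 over all genes. The shares that passed were near those of all genes, and lower calls outnumbered higher ones. The stages also differed in the Gapdh 3′ minus 5′ value, and with it as a covariate 2 genes passed in knockouts, both lower, and 0 in controls (limma). Stage and this RNA measure overlap so far that their parts cannot be told apart.

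By group, 6 of 13 replication genes fell (46.2%) and 1 rose in knockouts, and 7 fell (53.8%) and 1 rose in controls. Of all genes 33.8% fell and 27% rose in knockouts, and 35.9% fell and 28.5% rose in controls. Of the 23 mitosis genes, 11 fell (47.8%) and 5 rose (21.7%) in knockouts and 10 fell (43.5%) and 3 rose (13%) in controls. Of the 7 genes of S phase entry, 2 fell in knockouts (28.6%), and 2 fell (28.6%) and 1 rose in controls. In both genotypes 17 genes fell: Ccne2 and Ccnd2 of S phase entry, Gmnn, Mcm2, Mcm4, Mcm5, Mcm7 and Pcna of replication, and Bub1, Bub1b, Cdc20, Cenpa, Cenpf, Kif23, Mad2l1, Plk1 and Top2a of mitosis. The 4 that rose in both were Mcm6, Ccna2, Mki67 and Kif20a, of which Kif20a turned to -0.018 in controls with arrays centred on their medians. Ndc80 and Ube2c rose and Birc5 and Cdk1 fell past the threshold in knockouts alone, and Ccnd3 rose and Kif11 and Rrm1 fell past it in controls alone. For none of these 7 did the test of the difference pass. Without the library labelled E14.5 control replicate 1, 22 of 43 genes passed in controls, 4 higher and 18 lower, and Ccnd3 did not (0.26 ± 0.16, adjusted p = 0.173). The other 15 passed in neither genotype.

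**Figure D3:**
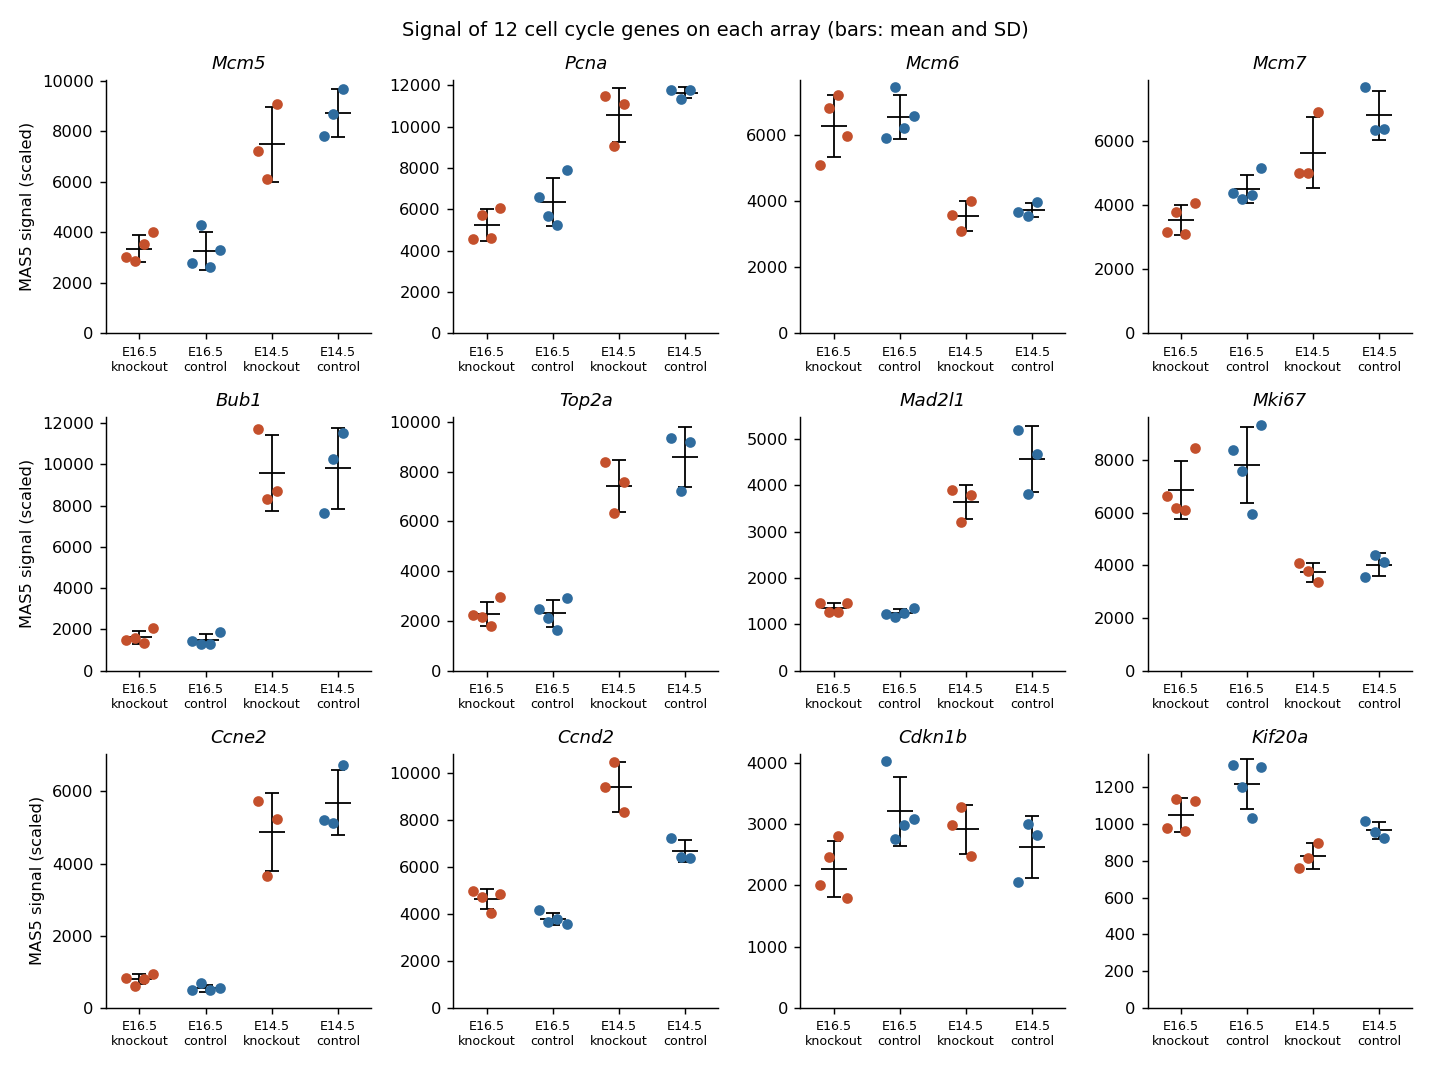
The MAS5 signal of 12 genes on each of the 14 arrays is plotted by group, with bars for the mean and SD. Bub1, Top2a, Mad2l1, Ccne2, Mcm5 and Pcna are lower at E16.5 in both genotypes without overlap, Mki67 and Mcm6 are higher, and knockout and control arrays of 1 stage lie together for most of the genes.

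On the brightest probe sets, Ccne2 changed most among genes of S phase entry, while other probe sets of Ccnd2 and Cdkn1b changed by more. It averaged 793 ± 139 in E16.5 knockouts, against 4875 ± 1091 in E14.5 knockouts (SD, n = 4 and 3), a change of -2.59 ± 0.18 (SE, adjusted p = 2.18e-09). In controls it averaged 545 ± 94.7 at E16.5, against 5688 ± 898 at E14.5 (-3.35 ± 0.18, adjusted p = 8.83e-11). Among the brightest probe sets of the 43 genes this was the largest change in either genotype. Its relative Ccne1 stayed at -0.19 ± 0.20 in knockouts and -0.28 ± 0.20 in controls (adjusted p = 0.427 and 0.238). Ccnd2 changed by -1.01 ± 0.10 in knockouts (adjusted p = 2.83e-07) and -0.82 ± 0.10 in controls (adjusted p = 2.68e-06) on its brightest probe set, and by 0.10 in knockouts and 0.36 in controls on the mean of its 7. Ccnd3 changed by 0.11 ± 0.16 in knockouts (adjusted p = 0.593) and 0.45 ± 0.16 in controls (adjusted p = 0.0214). Cdkn1b did not pass, at -0.37 ± 0.17 in knockouts and 0.30 ± 0.17 in controls (adjusted p = 0.0688 and 0.141) on its brightest probe set, and the mean of its probe sets gave 2.30 in knockouts. E2f1, the transcription factor that switches on S phase genes, and Ccnd1 did not pass in either.

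Of the helicase subunits, Mcm2, Mcm4, Mcm5 and Mcm7 fell in both genotypes, Mcm6 rose and Mcm3 did not pass, all on the brightest probe set. Of the 5 probe sets of Mcm3, 3 passed as higher in each genotype, and Mcm7 had 2 of 4 higher in knockouts and 1 in controls. Mcm5 had 3035, 2854, 3545 and 4017 in E16.5 knockouts, against 7219, 6129.6 and 9098 in E14.5 knockouts. In controls it had 2779, 4301, 2649 and 3314 at E16.5, against 7817, 8674 and 9687 at E14.5. The stages did not overlap, and the changes were -1.14 ± 0.17 (adjusted p = 1.51e-05) and -1.44 ± 0.17 (adjusted p = 9.55e-07). Mcm2 changed by -0.80 ± 0.18 in knockouts and -0.85 ± 0.18 in controls (adjusted p = 0.000852 and 0.000429), and Mcm4 by -0.92 ± 0.17 in knockouts (adjusted p = 0.000132). Pcna had 4565, 5747, 4594 and 6046 in E16.5 knockouts, against 11496, 9070.5 and 11076 in E14.5 knockouts (-1.01 ± 0.14, adjusted p = 6.83e-06). In controls it had 6580.2, 5665, 5246 and 7896 at E16.5, against 11786, 11331 and 11776 at E14.5 (-0.89 ± 0.14, adjusted p = 2.32e-05), again without overlap. Gmnn averaged 1571 ± 204 in E16.5 knockouts, against 2697 ± 686 in E14.5 knockouts (-0.75 ± 0.16, adjusted p = 0.000763). In controls it averaged 1425 ± 173 at E16.5, against 3453 ± 626 at E14.5 (-1.26 ± 0.16, adjusted p = 3.53e-06). The ribonucleotide reductase subunit Rrm2, the nucleotide enzyme Tyms and the loaders Cdc6 and Cdt1 did not pass in either genotype.

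Mcm6 moved opposite to Mcm2, Mcm4, Mcm5 and Mcm7 on the brightest probe sets, with 5111, 6825, 7213 and 5977 in E16.5 knockouts, against 3575, 3096 and 3996 in E14.5 knockouts (0.81 ± 0.12, adjusted p = 2.44e-05). In controls it had 5918, 7458, 6226 and 6567 at E16.5, against 3679, 3547 and 3983 at E14.5 (0.80 ± 0.12, adjusted p = 2.41e-05). The stages did not overlap there. Its other probe set above the filter, 1416251_at, moved the other way, with 2075, 2023, 1738 and 2271 in E16.5 knockouts, against 3799.8, 3857 and 4997 in E14.5 knockouts. It changed by -1.05 ± 0.13 in knockouts and -1.17 ± 0.13 in controls (adjusted p = 1.88e-06 and 4.22e-07). On the mean of all its probe sets, which takes in 1447756_x_at from below the filter, Mcm6 changed by -0.19 in knockouts and -0.11 in controls. It did not pass there.

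Among mitosis genes the checkpoint kinase Bub1 changed most on the brightest probe sets. It had 1467, 1581, 1338 and 2074 in E16.5 knockouts, against 11708, 8308 and 8718 in E14.5 knockouts (-2.56 ± 0.18, SE, adjusted p = 2.65e-09). In controls it had 1447, 1307, 1278 and 1895 at E16.5, against 7665, 10266 and 11514 at E14.5 (-2.71 ± 0.18, adjusted p = 1.03e-09). Every E14.5 array was far above every E16.5 array. Top2a, the topoisomerase that untangles sister chromatids, averaged 2276 ± 477 in E16.5 knockouts, against 7436 ± 1039 in E14.5 knockouts (SD, n = 4 and 3), and 2298 ± 549 in E16.5 controls, against 8592 ± 1205 in E14.5 controls. Its changes were -1.71 ± 0.18 in knockouts and -1.92 ± 0.18 in controls (adjusted p = 4.12e-07 and 8.87e-08). Cenpa had 457, 328, 429 and 496 in E16.5 knockouts, against 1083, 1136 and 1935 in E14.5 knockouts (-1.62 ± 0.18, adjusted p = 8.48e-07). In controls it had 391, 382, 341 and 461 at E16.5, against 1673, 1608 and 1707 at E14.5 (-2.04 ± 0.18, adjusted p = 4.64e-08). The stages were apart in both genotypes. Mad2l1 averaged 1239.5 ± 79.4 in E16.5 controls, against 4564 ± 705 in E14.5 controls (-1.86 ± 0.12, adjusted p = 8.21e-10), and Cenpf, a kinetochore protein, 1076 ± 111 in E16.5 knockouts, against 3407 ± 509.6 in E14.5 knockouts (-1.64 ± 0.13, adjusted p = 1.11e-08). Plk1, a kinase of spindle assembly, Cdc20, Kif23 and the checkpoint protein Bub1b fell, with changes of -1.35 to -0.59 in knockouts and -1.17 to -0.71 in controls.

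Not all mitosis genes fell. Mki67 had 6647, 6191, 6123 and 8481 in E16.5 knockouts, against 4075, 3794 and 3359 in E14.5 knockouts (0.86 ± 0.15, adjusted p = 6.95e-05). In controls it had 8405, 7576, 5942 and 9347 at E16.5, against 3545, 4393 and 4120.2 at E14.5 (0.94 ± 0.15, adjusted p = 2.36e-05). Every E16.5 array was above every E14.5 array, the opposite of Top2a, another gene commonly used to mark dividing cells. Kif20a rose by 0.34 ± 0.12 in knockouts and 0.32 ± 0.12 in controls (adjusted p = 0.0211 and 0.0255). Ccna2, the cyclin of S and G2 phase, rose by 0.67 ± 0.15 in knockouts and 0.69 ± 0.15 in controls (adjusted p = 0.00104 and 0.000796) on its brightest probe set. Its signals there were 1739, 1497, 1486 and 1863 in E16.5 knockouts, against 1133, 1015 and 928 in E14.5 knockouts. Its second probe set, 1417910_at, fell by 0.62 in knockouts and by 0.59 in controls (adjusted p = 0.00137 and 0.00183). Ube2c, the enzyme that hands ubiquitin to that ligase of metaphase, rose by 0.59 ± 0.21 in knockouts (adjusted p = 0.0211). Mki67 and Kif20a have 1 probe set each above the filter. Aurka and Aurkb, kinases of the spindle and of the centromere, Ccnb2, the partner of Cdk1, Cenpe, Foxm1, a transcription factor of mitotic genes, and Nuf2 passed in neither genotype.

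Probe sets of a single gene often disagreed between the stages. In knockouts 57 of the 87 probe sets passed (65.5%, against 64.2% of all probe sets), with 21 higher and 36 lower (34.5% and 29.6% of all probe sets). In controls 58 passed (66.7%, against 67%), with 19 higher and 39 lower (35.9% and 31.1% of all). Of the 28 genes with several probe sets, 6 had calls in both directions in knockouts (21.4%, against 30.9% of 6143 genes), namely Ccna2, Ccnd2, Cdc20, Cenpf, Mcm6 and Mcm7. In controls it was 9 (32.1%, against 31.9%), namely Ccna2, Ccnd2, Cenpf, Kif11, Kif23, Mcm3, Mcm6, Mcm7 and Rrm1. All probe sets fell for Bub1, Bub1b, Cenpa, Mcm4, Mcm5 and Top2a in knockouts and for Bub1, Bub1b, Mcm2, Mcm4 and Mcm5 in controls, and no gene had all its probe sets higher. Bub1, Bub1b, Mcm4 and Mcm5 are on both lists.

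The median distance between the highest and lowest change of a gene's probe sets was 1.17 in knockouts and 1.29 in controls between the stages, but 0.17 and 0.23 between knockout and control at E16.5 and at E14.5. The stage distance over all genes was 1.34 and 1.42. Ccnd2 spread most: 1416124_at had 3887, 5273, 4699 and 4153 in E16.5 controls, against 173, 133 and 99 in E14.5 controls, a change of 4.92 ± 0.17. Its probe set 1416122_at had 1766, 1771, 1606 and 1637 in E16.5 controls, against 6716, 5356 and 5581 in E14.5 controls, a change of -1.78 ± 0.11. Ccnd2 thus read as far higher or far lower at E16.5 by the probe set chosen, while the knockout effect on both was positive at both stages. Whether the 2 probe sets detect the same transcripts was not tested. Mcm3 ran from -0.66 to 3.97 and Cdkn1b from 0.30 to 4.68 in controls. The RNA quality measure moved with the stages in the same arrays, and its part in these disagreements was not tested beyond the covariate fit, under which 9 probe sets passed in knockouts and 5 in controls.

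**Figure D4:**
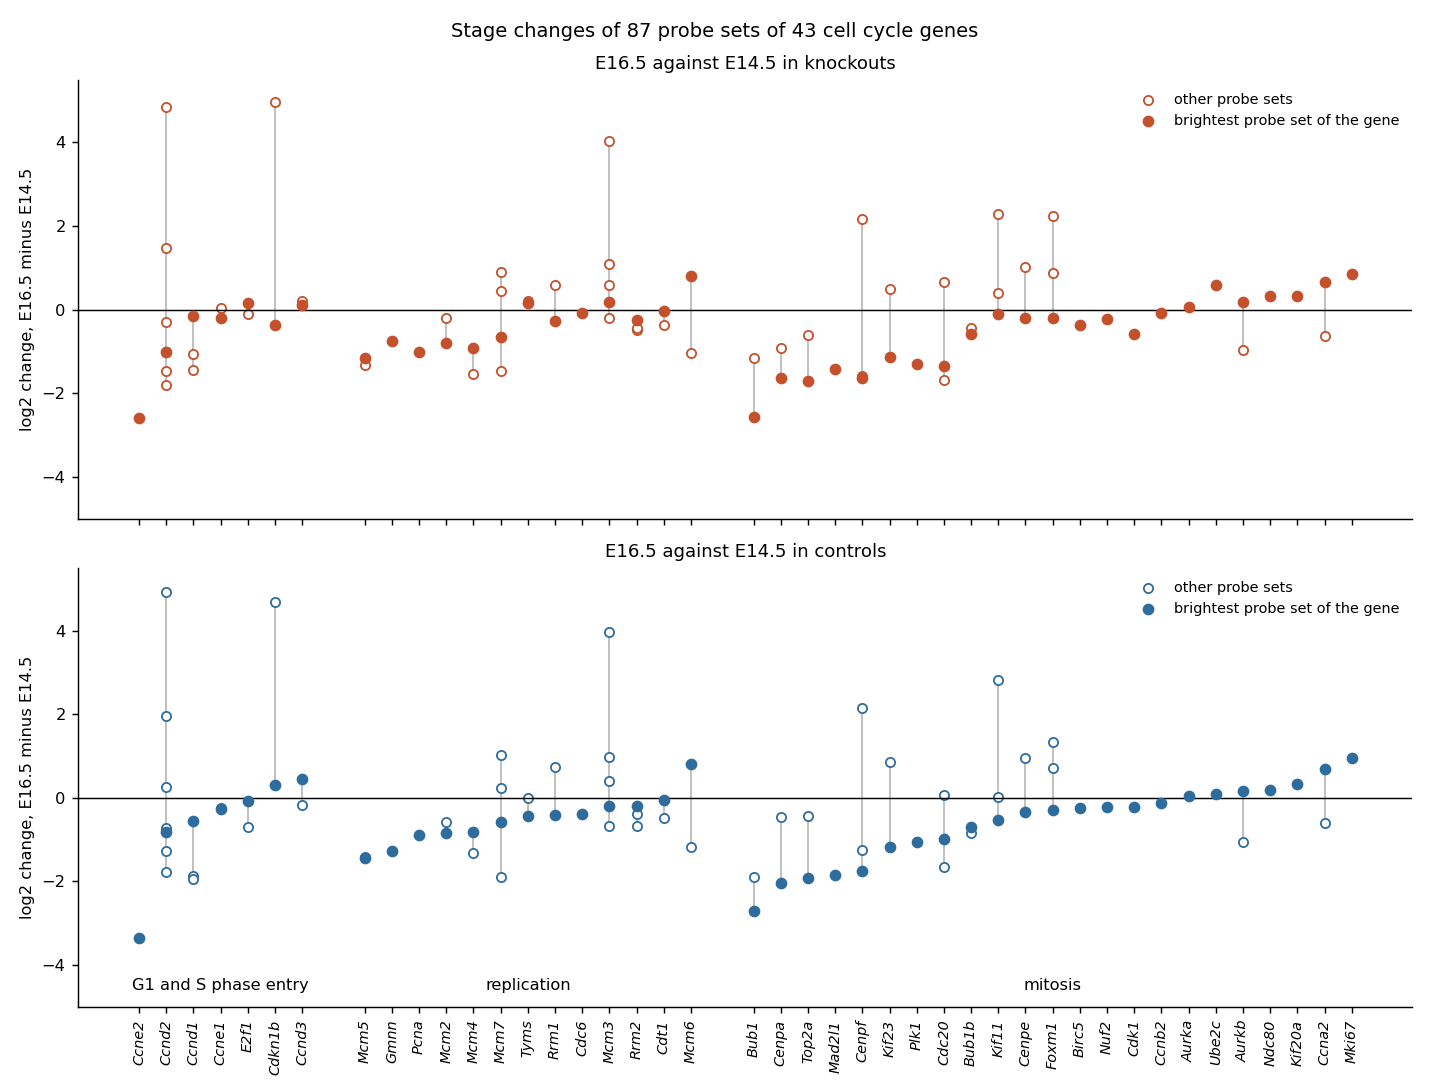
The log2 change between E16.5 and E14.5 is plotted for the 87 probe sets of 43 genes, in knockouts (top) and controls (bottom), with filled points for the brightest probe set of a gene, open points for its others and a line joining them. The probe sets of Ccnd2, Cdkn1b, Mcm3 and Mcm6 lie on both sides of 0 or far apart, while those of Bub1, Bub1b, Mcm4 and Mcm5 all lie below 0.

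Other scalings moved the level of the array as a whole and with it the split. The median of all genes between the stages was -0.08 in knockouts and -0.09 in controls as scaled by the authors, -0.20 and -0.21 after quantile normalization, and -0.41 and -0.43 after centring arrays on their medians. In knockouts the members then split into 4 higher and 19 lower with quantiles and 2 and 28 with centring. In controls they split into 5 and 26, and 2 and 33. All genes split into 3351 higher and 4196 lower in knockouts and 3541 and 4452 in controls as scaled by the authors, and into 2082 and 6065, and 2257 and 6251, after centring. Relative to the median of all genes, the members' median change was -0.16 in knockouts and -0.30 in controls both as scaled and after centring, and -0.19 in knockouts and -0.28 in controls with quantiles.

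Genes of the same pathways outside the 44 were counted from lists of other replication, mitosis and G1 genes. Between knockout and control none of 43 other replication genes and none of 50 other mitosis genes passed in limma at either stage. At an unadjusted p under 0.05 there were 7 of the replication and 8 of the mitosis genes at E16.5, against 18.3% of all genes, and 10 and 4 at E14.5, against 8.55% of all genes. Of 33 other genes of G1 control, 2 rose at E16.5 (6.06%, against 0.967% of all genes as higher). They were Ccng1, a cyclin induced by p53, which averaged 2269 ± 292 in E16.5 knockouts and 946.3 ± 31.9 in E16.5 controls (SD, n = 4 each, 1.24 ± 0.17, SE, adjusted p = 0.00345), and Cdkn1a, which encodes the kinase inhibitor p21, at 1006 ± 124 in knockouts and 441.1 ± 33.9 in controls (1.16 ± 0.16, adjusted p = 0.00273). At E14.5 Ccng1 averaged 3807 ± 322 in knockouts and 1970.1 ± 855 in controls (n = 3 each) and did not pass (adjusted p = 0.102). Between the stages, other replication genes fell for 60.5% in knockouts and 67.4% in controls (median -0.71 and -0.88), and other mitosis genes for 48% and 54% (median -0.40 and -0.56). Of all genes 33.8% fell in knockouts and 35.9% in controls (median -0.08 and -0.09). Other replication genes rose for 14% and 11.6% and other mitosis genes for 16% and 18%, against 27% and 28.5% of all genes. Orc1, which marks origins of replication, changed by -1.47 in knockouts and -2.10 in controls. Kif18a, a motor that aligns chromosomes, changed by -2.72 in knockouts and -3.19 in controls.

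Most germ cell markers fell between the stages on the same arrays. Of 14 meiotic markers 13 were lower in each genotype (median -1.16 in knockouts and -1.69 in controls), with a summed signal of 34673 to 47237 in E16.5 knockouts, 35959 to 45021 in E16.5 controls, 88610 to 114245 in E14.5 knockouts and 97043 to 119957 in E14.5 controls. Of all genes 33.8% were lower in knockouts and 35.9% in controls. Of 10 markers of mitotic and early germ cells, 6 passed the filter on the mean of all arrays, which genes high at E14.5 alone can pass. Of these 6, 2 fell in knockouts and 6 in controls (median -0.92 in knockouts and -2.58 in controls). Their summed signal was 842 to 1681 in E16.5 knockouts and 538 to 1130 in E16.5 controls. At E14.5 it was 1558 to 7228 in knockouts and 4209 to 9508 in controls. Of 9 general germ cell markers 5 fell in knockouts and 7 in controls, with 2 higher in each. Pre-granulosa markers fell for 6 of 9 in each, with a summed signal of 23832 to 30436 at E16.5 and 43467 to 56433 at E14.5. Of 10 leukocyte markers 4 rose and 1 fell in knockouts, and 6 rose and 2 fell in controls. Of 10 interstitial markers 2 rose in each genotype, the targeted Nr2f2 being 1 of them, and 3 fell in knockouts. The part of these cells in the fall of the replication and mitosis genes was not tested.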

How the data were processed

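Values were the probe set signal intensities of 14 Affymetrix arrays, made by the authors with the MAS5 method. The submitters' processing notes name Affymetrix Expression Console as the program, with a version not given in the sources used here. Detection calls were not used here. The deposited intensities are linear. Every array had a trimmed mean of about 500.0 (2% off each end), which is the scaling the authors applied.

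The 44 genes and all gene lists were chosen with earlier results of these data known. Of 45101 probe sets, 45037 were no controls, of which 34945 had 1 gene symbol, 932 several and 9160 none, and genes were named from the first kind. By gene ID 34741 were found in RefSeq, with 0 symbols changed. Signals were analysed as log2(signal + 16) in R 4.3.3 with limma 3.58.1 and data.table in version 1.17.8 (lmFit and eBayes with a trend, two-sided, 4 groups in 1 fit). Probe sets with a mean signal above the 40th percentile (62.0) were kept, and the brightest stood for its gene, which left 12406 genes and 27022 probe sets. P-values were adjusted by Benjamini-Hochberg over all of these, with a threshold of 0.05. They set a difference between groups against the spread between these samples, estimated for each gene over the 4 groups together. The fit was tested on simulated data. Promoters and figures used Python 3.11.15, pandas 2.3.3 and matplotlib 3.10.9.

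Values on every array and full statistics are given for the genes past the threshold, or, in a knockout comparison where none passed, for the 4 with the smallest unadjusted p in replication and in mitosis and the 2 among S phase entry genes. Between the stages they are given for the 4 largest changes past the threshold in each group and direction, some as means or changes. Mki67, Pcna and Cdkn1b are given throughout, and Nr2f2 as the targeted gene. Other genes named for a value (Ccnd1, Ccnd3, Ccne1, Plk1, Fen1 and the probe sets) were chosen after their values were seen.

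The alternatives were pseudocounts of 64 and 1, quantile normalization, centring on array medians, no filter or the 60th percentile, the mean of a gene's probe sets, no trend, a fit of the compared groups alone, the replicate number as a block, the Gapdh 3′ minus 5′ value as a covariate, leaving out E16.5 knockout replicates 1 and 4, and leaving out each array in turn.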

Additional observations from a re-analysis of the deposited data

Results flagged for a closer look

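Among the signals of 43 genes in the 2 E16.5 groups of 4, 86 groups of 4 arrays were examined for 1 array far from the other 3, and 2 had such an array, where chance alone marks about 1 in 20. Ccnd1, a D-type cyclin, had a signal of 523.3 in E16.5 knockout replicate 3, while the nearest knockout array had 1029.7. Ndc80, a kinetochore protein, had a signal of 703.6 in E16.5 control replicate 4, and the next highest control array had 615.5.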

How the results depend on the processing

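Leaving out each array in turn gave 0 to 1 genes past the threshold at E16.5 (Ccne2 without knockout replicate 2, Ccnd1 without knockout replicate 3) and 0 to 1 at E14.5 (Ccnd2 without knockout replicate 3). Between the stages it gave 22 to 25 genes in knockouts and in controls, and 0 for the difference of the knockout effects. For probe sets the ranges were 0 to 2 at E16.5, 0 to 3 at E14.5, 52 to 57 in knockouts and 54 to 59 in controls between the stages, and 0 for the difference. The other 12 alternatives left 0 genes past the threshold in either knockout comparison. The E16.5 count of 1 probe set became 2 with a pseudocount of 64 or quantile normalization, and 0 with median centring, no filter, no trend, the Gapdh covariate, or without knockout replicates 1 and 4. At E14.5 it became 1 without the filter, 1455956_x_at of Ccnd2 (adjusted p = 0.0448, against 0.0927 with the filter, which it also passes, and 0.0116 to 0.586 over the alternatives). The cause was not tested. Of the stage calls, the Gapdh covariate left 2 genes and 9 probe sets in knockouts and 0 genes and 5 probe sets in controls, and the other alternatives gave 23 to 30 genes in knockouts and 21 to 35 in controls. With the mean of a gene's probe sets 9 rose and 17 fell in knockouts, and 7 rose and 14 fell in controls. Under that choice Ccnd2 turned to 0.10 in knockouts and 0.36 in controls, Cdkn1b to 2.30 in knockouts, and Mcm6 to -0.19 in knockouts and -0.11 in controls, because other probe sets entered. Kif20a turned to -0.018 in controls with median centring and to -0.075 with the Gapdh covariate, under which Mcm6 turned to -0.060 in controls, and the cause was not tested. Over all genes, the counts past the threshold ran from 19 to 497 at E16.5, the highest without knockout replicate 2, and from 0 to 176 at E14.5, the highest without E14.5 knockout replicate 3. Without the library labelled E14.5 control replicate 1 it was 22 at E14.5. Between the stages the Gapdh covariate left 1192 of all genes in knockouts and 701 in controls. With the mean of a gene's probe sets, 4091 rose and 3103 fell in knockouts and 4249 rose and 3385 fell in controls.

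Replicate numbers occur in every group. Deviations of arrays with the same number correlated at 0.19, -0.0022, 0.058 and 0.43 at E16.5 and -0.0025, 0.16 and -0.048 at E14.5, and the best match was the own number for 2 of 4 and 1 of 3. With the number as a replicate block, 0 genes passed in either knockout comparison and 0 for the difference, 25 between the stages in knockouts and 24 in controls. It left 1 probe set at E16.5, 0 at E14.5 and 0 for the difference, with 57 in knockouts and 59 in controls between the stages. Over all genes it gave 256 at E16.5 and 8 at E14.5, against 176 and 5 without the block.

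The number of arrays, 3 or 4 a group, limits the precision, and changes of genes near the filter, such as Tyms, rest on dim signals. The hybridization control bioB was high on E16.5 knockout replicates 1 and 4, at 10028 and 16405, while the 6 remaining E16.5 arrays had 3806 to 5113.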

Other observations

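Genes of G1 control outside the 44, among them inhibitors that hold cells at rest, were counted between the stages. Of 33 genes of G1 control, 6 rose and 15 fell in knockouts and 5 rose and 16 fell in controls, a total share near that of all genes, of which 27% rose and 33.8% fell in knockouts and 28.5% rose and 35.9% fell in controls. Cdkn2a, which encodes a kinase inhibitor and a p53 activator, averaged 41.6 ± 9.57 in E16.5 knockouts, against 629 ± 359 in E14.5 knockouts (SD, n = 4 and 3, limma change -3.37 ± 0.29, SE, adjusted p = 3.32e-08), and its E16.5 mean lay below the filter. The inhibitor Cdkn2d averaged 290.4 ± 12.3 in E16.5 knockouts, against 1189.7 ± 449 in E14.5 knockouts (-1.92 ± 0.19, adjusted p = 1.89e-07). E2f5, a repressor of the E2F family, changed by -1.72 ± 0.13 in knockouts and -2.01 ± 0.13 in controls (limma, adjusted p = 1.09e-08 and 1.30e-09). Fen1, which trims the ends of replicated fragments, rose by 0.86 ± 0.15 in knockouts and 1.27 ± 0.15 in controls (limma, adjusted p = 7.63e-05 and 8.49e-07), while most other replication genes that passed fell. Lmnb1, a protein of the nuclear lamina, had the smallest p of the other mitosis genes between knockout and control at E16.5 (-0.72 ± 0.21, limma, adjusted p = 0.0910), and Rfc3, of the loader of the Pcna clamp, that of the other replication genes at E14.5 (-0.48 ± 0.14, adjusted p = 0.32). The Gapdh 3′ minus 5′ value moved with the stages, and its part in the stage changes of these genes was not tested.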
